A study of Mus musculus with 9 samples.

Results

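The enzymes that remove superoxide and peroxides were followed in the liver of mice on 3 regimens, through 10 genes: the superoxide dismutases Sod1 and Sod2, catalase (Cat), the peroxiredoxins Prdx1, Prdx2, Prdx3, Prdx5 and Prdx6, and the glutathione peroxidases Gpx1 and Gpx4. They were chosen by name, as the entries of the gene table named for 1 of these genes. The choice of these genes and of the related lists was made with earlier results of these data known. The gene table held 52151 entries, of which 26350 had a known transcript and a gene name. It held 11 entries named for the 10 genes, and 10 of these, 1 per gene, had a known transcript. The 11th, a second Prdx6 entry made only of an assembled transcript, was between 0 and 1.19 FPKM and was not tested.

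The pair-fed group (PF, n = 3) received an isocaloric control liquid diet, the alcohol-fed group (AF, n = 3) received the alcohol-containing Lieber-DeCarli liquid diet, and the remaining group (AF with MNA, n = 3) received the Lieber-DeCarli diet and intraperitoneal MNA at 50 mg/kg, a compound that the labels do not spell out. Feeding lasted 5 weeks, the age label was 8 weeks, and per the methods the mice of the diet experiment were male C57BL/6J and fasted before sampling. The strain label was C57BL/6 in PF and AF but read C57BL/7, C57BL/8 and C57BL/9 in the libraries of AF with MNA. The labels do not say that the libraries of a group came from separate mice, so the p-values measure the spread between these libraries only. Whole liver was the source, so that fewer cells of a type and less RNA per cell cannot be told apart.

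Superoxide, which leaks from the mitochondrial electron transport chain and from oxidases, is converted to hydrogen peroxide by superoxide dismutases. Hydrogen peroxide is then removed by catalase in the peroxisomes, by peroxiredoxins, which use a reactive cysteine and are recharged mostly by thioredoxin, and by glutathione peroxidases, which use glutathione. In the liver, ethanol oxidation by the cytochrome Cyp2e1 is a known source of reactive oxygen, and catalase itself can oxidise ethanol.

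All libraries had liver identity, with the 7 hepatocyte markers summing to between 17617 and 24102 FPKM, the 6 neutrophil markers to at most 1.44 FPKM, the 6 stellate cell markers to 29.2 to 45.5 FPKM and the 5 cholangiocyte markers to 3.27 to 9.12 FPKM. FPKM counts the fragments of a gene, scaled to transcript length and to the fragments of the library. At the lowest level of any of the 10 genes, the mean read coverage was 66.2 to 129 reads per base, so that counting depth was high for all of them. AF replicate 3 and AF with MNA replicate 1 stood apart in the signal of intronic transcripts, which summed to 9433 and 8934 FPKM in the lncRNA table against 2477 to 4937 FPKM in the other 7 libraries. The differences were also computed without these 2 libraries, a setting chosen after the data were seen.

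Of the 10 genes, 9 had a promoter window in RefSeq (GRCm38.p6), 250 bases before to 50 bases after the annotated start. The 3 windows below belong to the pair of mitochondrial matrix enzymes whose levels differed most between groups, Sod2 and Prdx3, and to Prdx1, the most abundant peroxiredoxin. Capitals mark matches, on either strand, to the core of the antioxidant response element bound by NRF2 (TGACNNNGC) and to the GC box (GGGCGG).
Prdx1 promoter, chr4:116685349-116685648, plus strand: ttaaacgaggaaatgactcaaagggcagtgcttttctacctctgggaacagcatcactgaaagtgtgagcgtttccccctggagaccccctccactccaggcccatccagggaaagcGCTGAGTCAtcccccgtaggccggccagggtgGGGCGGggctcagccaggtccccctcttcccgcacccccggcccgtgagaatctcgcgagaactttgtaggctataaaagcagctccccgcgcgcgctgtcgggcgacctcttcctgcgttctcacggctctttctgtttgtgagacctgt
Prdx3 promoter, chr19:60874489-60874788, minus strand: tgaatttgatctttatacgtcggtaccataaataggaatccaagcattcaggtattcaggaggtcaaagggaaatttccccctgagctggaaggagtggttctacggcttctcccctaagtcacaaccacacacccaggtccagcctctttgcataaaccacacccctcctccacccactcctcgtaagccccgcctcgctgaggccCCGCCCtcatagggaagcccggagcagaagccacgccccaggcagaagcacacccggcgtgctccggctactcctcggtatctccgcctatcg
Sod2 promoter, chr17:13007589-13007888, plus strand: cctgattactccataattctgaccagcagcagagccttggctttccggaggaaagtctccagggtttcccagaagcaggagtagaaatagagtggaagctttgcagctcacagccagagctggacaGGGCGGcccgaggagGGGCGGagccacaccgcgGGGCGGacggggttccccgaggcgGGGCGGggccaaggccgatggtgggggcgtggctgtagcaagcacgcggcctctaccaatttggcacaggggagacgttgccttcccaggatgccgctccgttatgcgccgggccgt
Sod2 held 4 GC boxes and no antioxidant response core, Prdx3 held 1 GC box and no such core, and Prdx1 held 1 of each. The 9 genes had 12 windows, 4 of them of Gpx4. The GC box was found in 11 of the 12, all but 1 window of Gpx4, and in 35.7% of the 32851 promoter windows searched. Among the Gpx4 windows 2 overlap and hold the same 2 GC boxes, so the 12 are not independent. Counted by gene, all 9 had a GC box. The antioxidant response core was found in 2 of the 12, those of Prdx1 and Sod1, and in 12.4% of all windows. The motifs did not overlap each other in the 3 windows printed, whose GC content was 60.7%, 57.0% and 64.3% for Prdx1, Prdx3 and Sod2, against a median of 52.7% over all windows. A match describes the letters only.

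**Figure D1:**
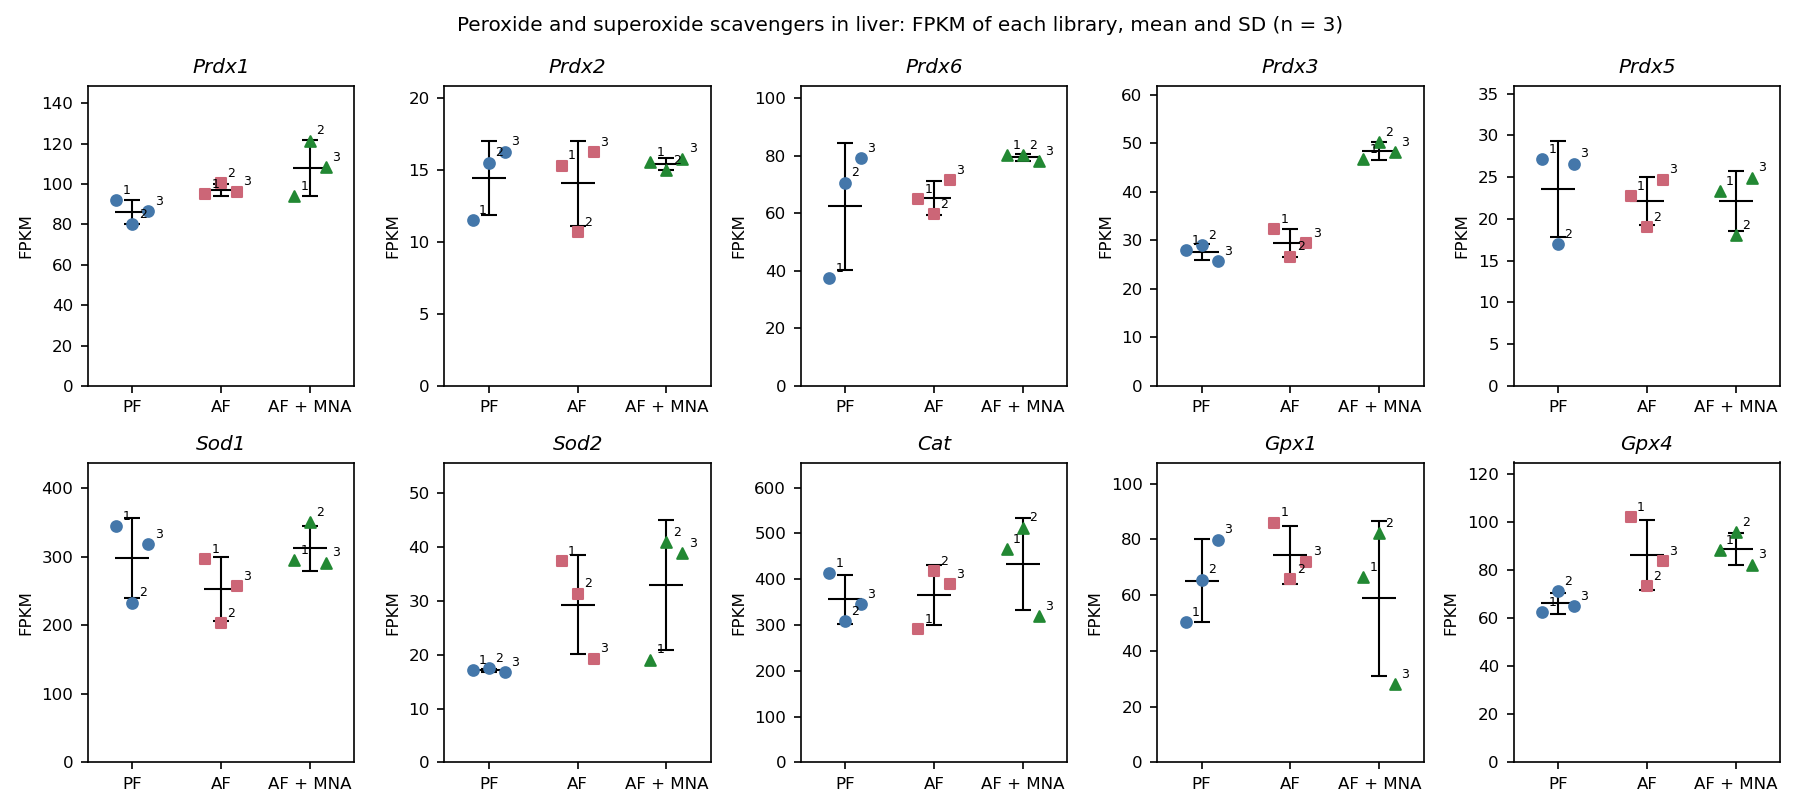
Each panel shows 1 gene, with FPKM on the vertical axis from 0, a point for each library (the digit is the replicate number) and the mean with its SD for PF, AF and AF with MNA (n = 3 each). Prdx3 sits between 46.7 and 50.3 FPKM in AF with MNA and at most at 32.4 FPKM elsewhere, and Sod2 lies between 16.8 and 17.4 FPKM in PF and is split within AF and within AF with MNA.

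FPKM is a level per length, so the genes can be set in order of level. Catalase was the most abundant in PF, at 356 ± 53.3 FPKM (SD, n = 3), and Sod1 the second, at 298 ± 58.2 FPKM, with overlapping ranges. Prdx1 followed at 86.3 ± 6.00 FPKM, and Gpx4 at 66.3 ± 4.41 FPKM, Gpx1 at 65.2 ± 14.8 FPKM and Prdx6 at 62.5 ± 22.1 FPKM overlapped each other. Prdx3 at 27.6 ± 1.70 FPKM, Prdx5 at 23.6 ± 5.74 FPKM, Sod2 at 17.1 ± 0.320 FPKM and Prdx2 at 14.4 ± 2.56 FPKM made the lower end. Catalase and Sod1 together took 56.3% to 69.9% of the summed level of the 10 genes in every library, and that sum lay between 908 and 1367 FPKM. In AF, Sod2 stood above Prdx5 in the mean order with overlapping ranges (29.3 ± 9.20 and 22.2 ± 2.88 FPKM), and in AF with MNA Prdx3 (48.4 ± 1.80 FPKM) stood above the highest library of Sod2.

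The first comparison asked which of these enzymes differed between alcohol-fed and pair-fed liver. None of the 10 genes passed an adjusted p of 0.05 in limma's test, where 40 of 12273 tested genes did (0.326%), and none passed the threshold of the methods (an unadjusted p under 0.05 with a ratio of group means above 2-fold in either direction), which 527 genes passed (4.29%). The methods give this threshold for lncRNAs analysed with Ballgown, and here it was applied to genes with limma's unadjusted p. A linear model with the library-size covariate of Ballgown gave 336 genes past it. At an unadjusted p under 0.05, 1 of the 10 passed, Sod2, against 11.7% of all tested genes. Sod2, Prdx1 and Gpx4 were higher in every AF library than in every PF library, 3 of the 10, where 8.18% of all tested genes were. The median log2 difference of the 10 genes was 0.11, with 7 of 10 above 0, beside a median of -0.026 over all tested genes, 45.5% of which lay above 0. With 3 against 3 libraries, an exact permutation test cannot give a p below 0.1.

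Sod2, the manganese superoxide dismutase of the mitochondrial matrix (GRCm38 chr17:13007817-13020134, plus strand), was at 17.09, 17.44 and 16.80 FPKM in PF, 37.30, 31.35 and 19.25 FPKM in AF, and 19.08, 40.86 and 38.88 FPKM in AF with MNA. The PF libraries were nearly equal, and each alcohol-fed group held a pair of libraries at 31.35 FPKM or more and 1 library just above PF. Those 2 low libraries, AF replicate 3 and AF with MNA replicate 1, were the 2 with the most intronic signal. The difference between AF and PF was 0.69 on the log2(FPKM + 1) scale (SE 0.24, a 1.62-fold higher level, limma unadjusted p = 0.0253, adjusted p = 0.36). Without AF replicate 3 it was 0.96 (SE 0.14, limma adjusted p = 0.103), and without AF replicate 1 it was 0.50 (limma adjusted p = 0.566). Between AF with MNA and PF it was 0.83 (SE 0.29, 1.78-fold, limma adjusted p = 0.288), and without AF with MNA replicate 1 it was 1.17 (SE 0.10) and passed, with an adjusted p of 0.0316 in limma's test, while without AF with MNA replicate 2 it was 0.64. A linear model with the library-size covariate of Ballgown gave 0.37 for the same comparison (adjusted p = 0.696). Between AF with MNA and AF the Sod2 difference was 0.14 (SE 0.36) and the 2 groups overlapped, and without both low libraries it was 0.22 (SE 0.17, limma adjusted p = 0.802). Marker genes of Kupffer cells, the resident macrophages, summed to 113.8, 117.0 and 77.9 FPKM in PF, 89.9, 159 and 78.4 FPKM in AF and 101, 134 and 102 FPKM in AF with MNA (9 of 10 markers found). Of the 9, 5 had a higher mean in AF than in PF. So did 5 of 5 cholangiocyte, 6 of 6 endothelial, 4 of 7 stellate cell, 3 of 7 hepatocyte, 3 of 6 erythroid and 3 of 6 neutrophil entries. Cholangiocyte sums did not overlap, at 3.27 to 4.31 FPKM in PF and 4.86 to 9.12 FPKM in AF. The part of any of these cells in the Sod2 values was not tested.

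**Figure D2:**
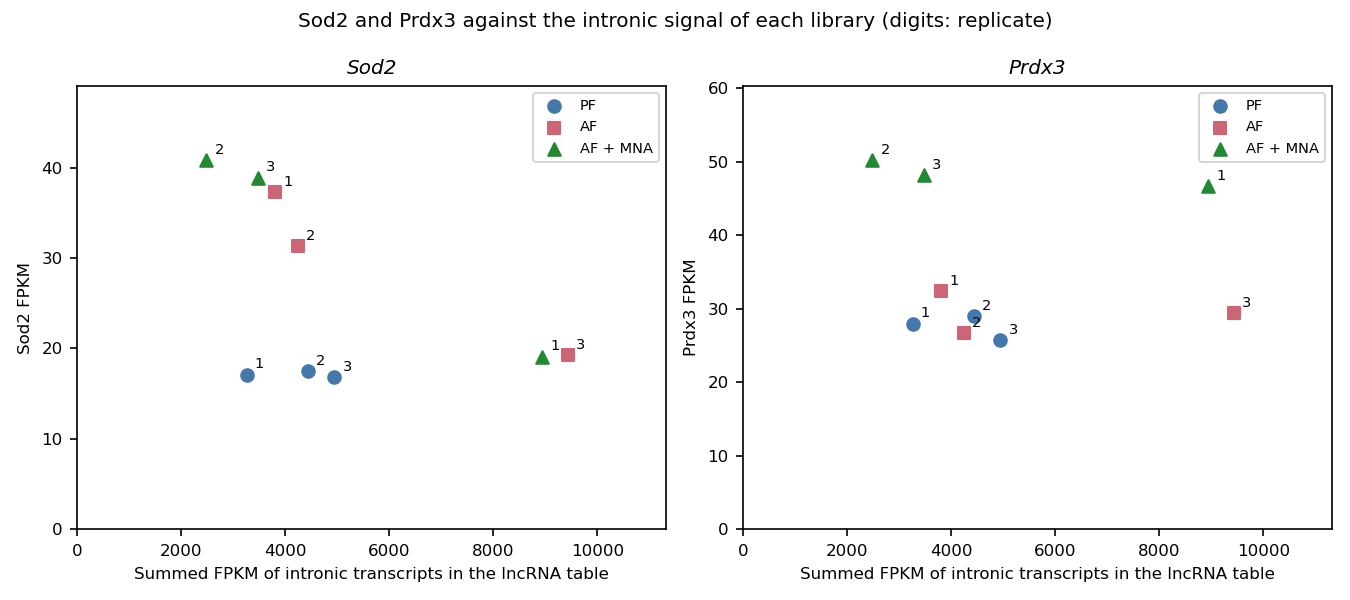
The FPKM of Sod2 (left) and Prdx3 (right) in each library is plotted against the summed FPKM of intronic transcripts in that library, with colours for the groups and digits for the replicate number. AF replicate 3 and AF with MNA replicate 1 lie at the right of both panels, at 19.25 and 19.08 FPKM for Sod2, above the PF range of 16.80 to 17.44 FPKM and below the other libraries of their groups, and for Prdx3 near the other libraries of their own group.

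Prdx3, the mitochondrial peroxiredoxin that is recharged by the mitochondrial thioredoxin Txn2 (chr19:60864051-60874556, minus strand), was at 27.97, 29.05 and 25.72 FPKM in PF, 32.38, 26.66 and 29.42 FPKM in AF, and 46.70, 50.28 and 48.23 FPKM in AF with MNA. The AF and PF libraries overlapped, and all 3 libraries of AF with MNA lay far above both other groups, with a coefficient of variation of 3.71%. The AF difference from PF was 0.091 on the log2 scale (SE 0.13, limma adjusted p = 0.832).

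The second comparison asked which of the enzymes differed when MNA was added to the alcohol diet. No gene of the 10 passed an adjusted p of 0.05 or the threshold of the methods, which 6 of 12219 genes (0.0491%) and 242 genes (1.98%) passed. Prdx3 was 1.62-fold higher in AF with MNA than in AF, by 0.70 on the log2 scale (SE 0.13, limma unadjusted p = 0.00112, adjusted p = 0.489), and ranked 28th of 12219 genes by p. It was the only 1 of the 10 genes at an unadjusted p under 0.05, where 5.21% of all genes were. Prdx3 and Prdx6 were higher in every library of AF with MNA than in every AF library, 2 of the 10, against 5.53% of all genes. The median log2 difference of the 10 genes was 0.14, with 8 of 10 above 0, beside 0.0099 over all tested genes, 52.4% of which lay above 0.

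The last comparison set AF with MNA against PF and shares libraries with both others, so its values are not independent of theirs. Prdx3 rose 1.73-fold, by 0.79 on the log2 scale (SE 0.10, limma unadjusted p = 0.000189, adjusted p = 0.0481), the only 1 of the 10 genes to pass an adjusted p of 0.05, where 52 of 12281 genes passed (0.423%) and 36 of them were higher (0.293%). None of the 10 passed the threshold of the methods, which 477 genes passed (3.88%). At an unadjusted p under 0.05 were 3 of the 10, Prdx3, Gpx4 and Sod2, against 14.5% of all tested genes. The Prdx3 adjusted p lay close to its limit, and it was 0.0934 to 0.157 when any 1 of the 6 libraries was left out, while the log2 difference stayed between 0.74 and 0.83. Endothelial markers (6 of 6 found) also did not overlap between these groups, at sums of 21.9 to 28.7 FPKM in PF and 35.1 to 41.3 FPKM in AF with MNA (28.6 to 41.0 FPKM in AF), and their part in the Prdx3 result was not tested. Sod2, Prdx3, Prdx1 and Gpx4 were higher in every library of AF with MNA than in every PF library, 4 of the 10, against 9.54% of all genes. The median log2 difference of the 10 genes was 0.29, with 8 of 10 above 0, beside -0.015 over all tested genes, 47.2% of which lay above 0.

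**Figure D3:**
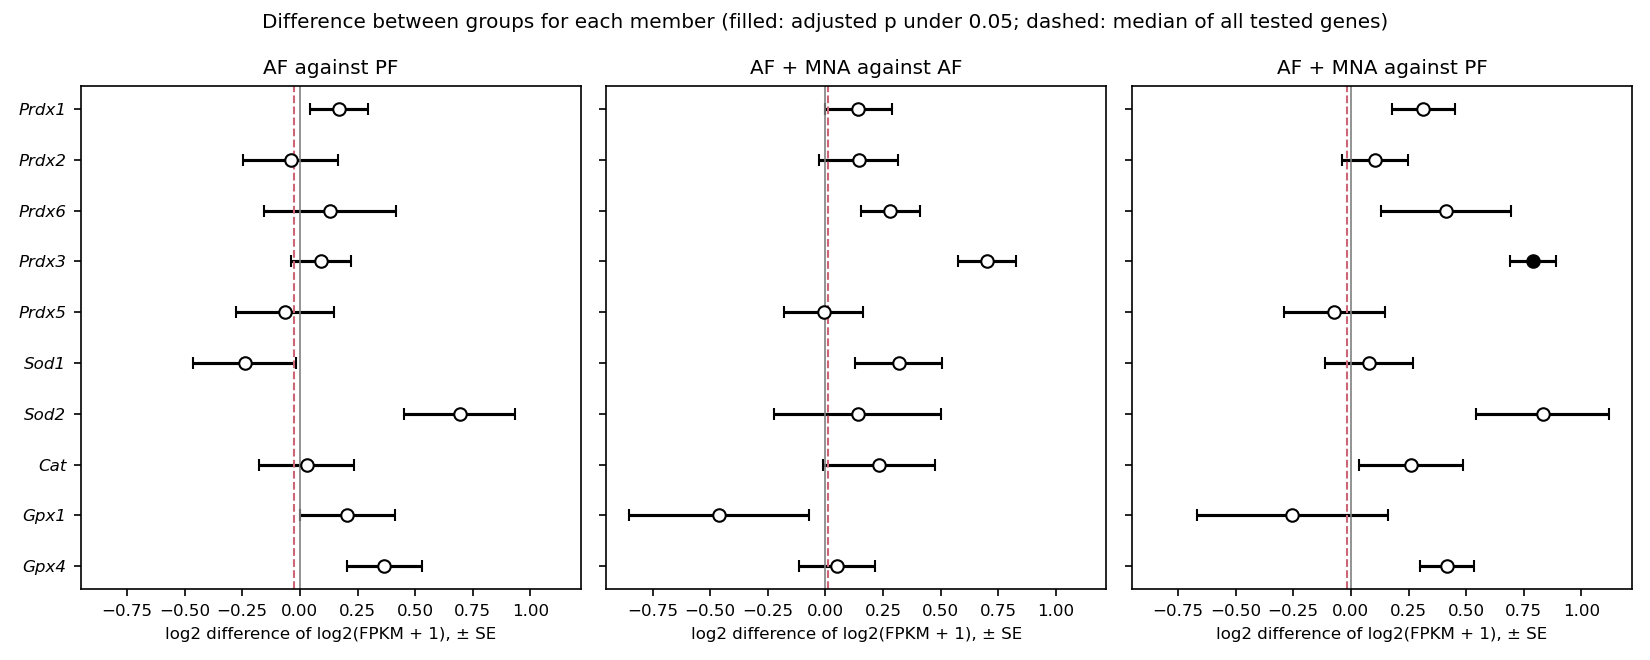
The difference between groups on the log2(FPKM + 1) scale is shown for each gene with its SE in the 3 comparisons, which share libraries. The filled point marks an adjusted p under 0.05, which only Prdx3 in AF with MNA against PF reached, and the dashed line is the median of all tested genes, which lies between -0.026 and 0.0099.

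**Figure D4:**
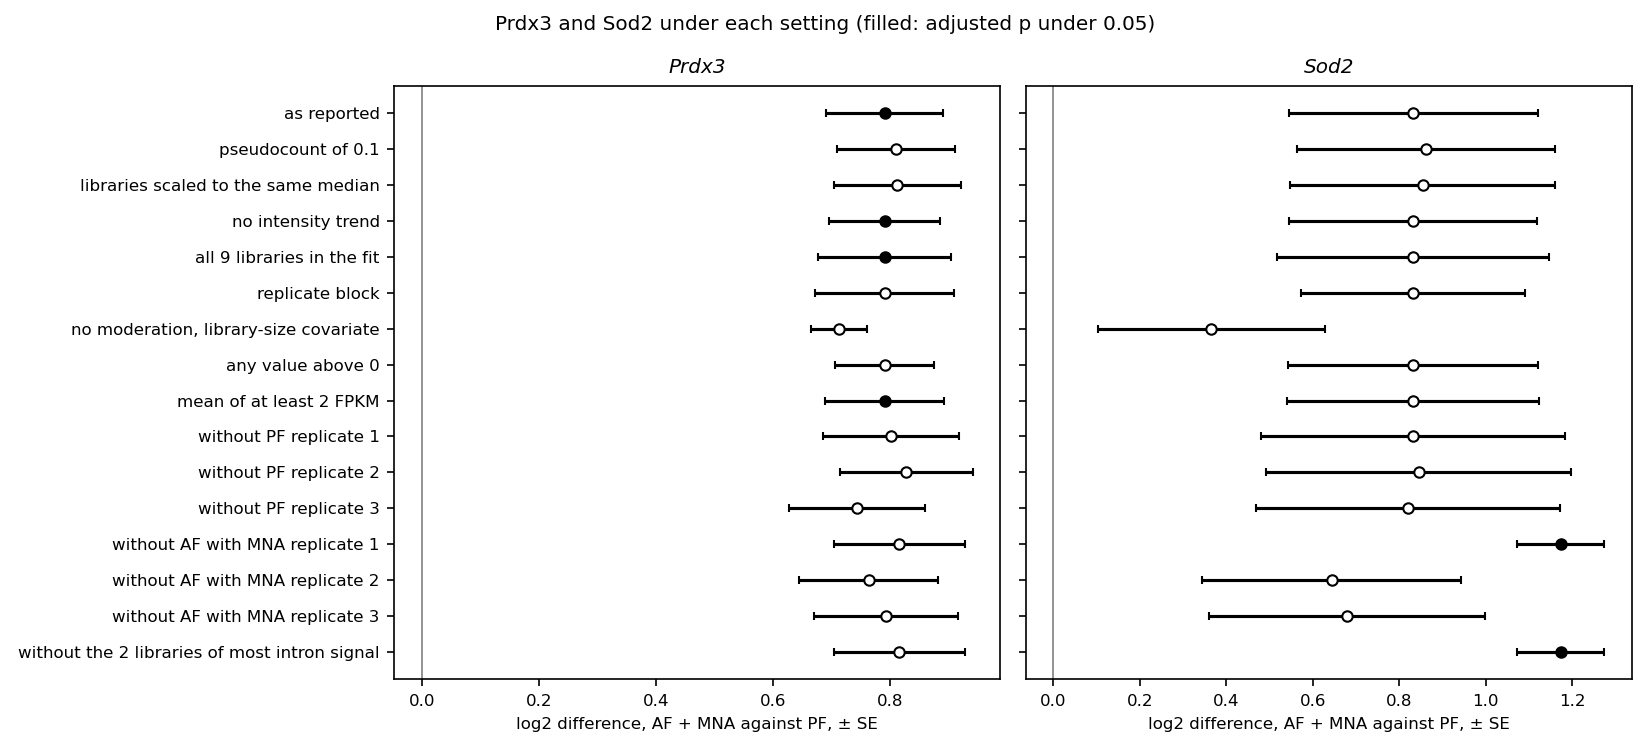
The log2 difference between AF with MNA and PF with its SE is shown for Prdx3 (left) and Sod2 (right) as reported and under each other setting, with filled points where the adjusted p was under 0.05. Prdx3 stays between 0.71 and 0.83 with a call that comes and goes, and Sod2 ranges from 0.37 to 1.17.

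Prdx5, a peroxiredoxin of mitochondria, peroxisomes and cytosol (chr19:6906697-6910106, minus strand), was at 27.15, 16.96 and 26.63 FPKM in PF, 22.70, 19.03 and 24.72 FPKM in AF, and 23.34, 18.05 and 24.94 FPKM in AF with MNA. The 3 groups overlapped fully, with log2 differences of -0.065 (SE 0.21), -0.0072 (SE 0.17) and -0.072 (SE 0.22) in the 3 comparisons. Sod2, Prdx3 and Prdx5 thus differed in pattern, with Prdx5 overlapping across the groups, Prdx3 apart in AF with MNA and Sod2 split within each alcohol-fed group.

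Sod1, the copper and zinc superoxide dismutase of the cytosol (chr16:90220754-90226329, plus strand), was at 343.86, 232.87 and 318.56 FPKM in PF, 296.26, 203.39 and 256.83 FPKM in AF, and 295.15, 349.90 and 291.10 FPKM in AF with MNA. The groups overlapped in all 3 comparisons, and the AF mean was the lowest, at a log2 difference of -0.24 from PF (SE 0.22, limma adjusted p = 0.723). Leaving out PF replicate 2 gave -0.41 and leaving out AF replicate 2 gave -0.094.

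Prdx1, the main cytosolic peroxiredoxin (chr4:116685544-116700822, plus strand), was at 92.12, 80.13 and 86.68 FPKM in PF, 94.85, 100.33 and 96.21 FPKM in AF, and 93.92, 121.55 and 108.24 FPKM in AF with MNA. Every library of both alcohol-fed groups lay above the highest PF library, by as little as 1.80 FPKM. The log2 difference from PF was 0.17 in AF (SE 0.13, limma adjusted p = 0.649) and 0.31 in AF with MNA (SE 0.14, limma adjusted p = 0.371), neither of which passed.

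Prdx2, the peroxiredoxin that is abundant in red blood cells (chr8:84969587-84974834, plus strand), was at 11.52, 15.52 and 16.29 FPKM in PF, 15.32, 10.71 and 16.25 FPKM in AF, and 15.54, 15.00 and 15.80 FPKM in AF with MNA. The groups overlapped, with log2 differences between -0.039 and 0.14 in the 3 comparisons. Erythroid markers (6 of 8 found), mostly globin, summed to 332, 450.0 and 355 FPKM in PF, 396, 650.4 and 293 FPKM in AF, and 286, 420 and 343 FPKM in AF with MNA. Of the 6, 3 had a higher mean in AF than in PF and 2 in AF with MNA than in PF, and the part of red cells in the Prdx2 values was not tested.

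Prdx6, the 1-cysteine peroxiredoxin that reduces phospholipid hydroperoxides with glutathione (chr1:161240112-161251219, minus strand), was at 37.47, 70.68 and 79.23 FPKM in PF, 65.03, 59.71 and 71.51 FPKM in AF, and 80.21, 80.16 and 78.17 FPKM in AF with MNA. PF replicate 1 was low, and the libraries of AF with MNA were close together, with a coefficient of variation of 1.46%, and lay above all 3 AF libraries. Their log2 difference from AF was 0.28 (SE 0.13, 1.22-fold, limma unadjusted p = 0.0652, adjusted p = 0.94). Against PF the difference was 0.41 (SE 0.28) and was 0.086 when PF replicate 1 was left out.

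Catalase (chr2:103453849-103485160, minus strand), the haem enzyme of the peroxisome, was at 414.05, 308.93 and 346.10 FPKM in PF, 290.49, 417.03 and 388.87 FPKM in AF, and 466.05, 512.78 and 319.47 FPKM in AF with MNA. The groups overlapped in every comparison, with log2 differences of 0.030 (SE 0.21), 0.23 (SE 0.24) and 0.26 (SE 0.22). With 1 library left out they ranged from -0.074 to 0.19, from 0.075 to 0.44 and from 0.13 to 0.47. Catalase was the only 1 of the 10 genes with circular RNAs in the deposited circRNA table, which listed 4 of them. They carried 6 back-splice junction reads in all, 2 in PF replicate 2, 2 in PF replicate 3 and 2 in AF with MNA replicate 2, too few for a comparison.

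Gpx1 and Gpx4 are selenoproteins, in which a TGA codon is read as selenocysteine, the residue that reacts with the peroxide, rather than as a stop. GENCODE M21 places this codon at position 47 of the Gpx1 reading frame (chr9:108339451-108339453) and at position 73 of a Gpx4 transcript (chr10:80054737-80054739). The stretches around it are printed with the selenocysteine codon in capitals, since translation of these mRNAs depends on selenium supply as well as on the mRNA levels measured here.
Gpx1: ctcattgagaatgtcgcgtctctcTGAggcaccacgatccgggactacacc
Gpx4: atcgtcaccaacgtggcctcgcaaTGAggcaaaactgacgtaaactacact
Gpx4, which reduces phospholipid hydroperoxides in membranes and guards against ferroptosis (chr10:80047166-80056439, plus strand), was at 62.62, 71.16 and 64.99 FPKM in PF, 101.98, 73.39 and 83.67 FPKM in AF, and 88.36, 95.76 and 82.28 FPKM in AF with MNA. Every library of both alcohol-fed groups lay above the highest PF library, which AF replicate 2 exceeded by 2.23 FPKM. The log2 difference from PF was 0.37 in AF (SE 0.16, 1.29-fold, limma unadjusted p = 0.0612, adjusted p = 0.454) and 0.42 in AF with MNA (SE 0.12, 1.33-fold, limma unadjusted p = 0.0107, adjusted p = 0.227). Between AF with MNA and AF it was 0.050 (SE 0.16).

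Gpx1, the abundant glutathione peroxidase of cytosol and mitochondria (chr9:108338903-108340343, plus strand), was at 50.21, 65.57 and 79.90 FPKM in PF, 86.00, 65.62 and 72.04 FPKM in AF, and 66.33, 82.20 and 28.00 FPKM in AF with MNA. AF with MNA replicate 3 was the lowest of the 9 libraries, and the 9 values spanned 3.07-fold, the widest span of the 10 genes. The log2 difference was 0.21 for AF against PF (SE 0.21) and -0.46 for AF with MNA against AF (SE 0.39), and the groups overlapped. The first was 0.033 without PF replicate 1 and 0.36 without PF replicate 3, and the second was -0.0046 without AF with MNA replicate 3. Against PF, AF with MNA differed by -0.25 on the log2 scale and by 0.20 when its replicate 3 was left out.

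Related genes were taken from 7 lists, on which no test of the list itself was run. Counts past the threshold of the methods, again with limma's p, stand beside 4.29% of all tested genes in AF against PF, 1.98% in AF with MNA against AF and 3.88% in AF with MNA against PF. In the covariate model, the unadjusted p in AF against PF was 0.0598 for Nqo1, 0.0986 for Gclc and 0.118 for Selenop. It stayed under 0.05 for the other list genes past the threshold in that comparison, Aox3, Ccs, Hao1, Me1 and Srxn1. Among 8 tested relatives and helpers of the 10 genes, Ccs, the copper chaperone that loads Sod1, passed the threshold of the methods with lower values in AF. Ccs was at 12.94, 12.62 and 10.95 FPKM in PF, 7.37, 5.36 and 4.53 FPKM in AF, and 8.47, 12.76 and 11.31 FPKM in AF with MNA. All AF libraries lay below all others, by -0.98 on the log2 scale against PF (SE 0.18, 0.506-fold, limma unadjusted p = 0.00118, adjusted p = 0.114), and AF with MNA was 1.76-fold above AF (limma adjusted p = 0.94). Sod1 itself had no such separation.

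Sod3, the extracellular superoxide dismutase, was at 0.21, 5.15 and 0.14 FPKM in PF, 0.13, 3.94 and 0.34 FPKM in AF, and 6.39, 5.38 and 5.38 FPKM in AF with MNA. It passed the threshold of the methods in both comparisons of AF with MNA, with limma adjusted p of 0.94 against AF and 0.318 against PF, and the replicate 2 libraries of PF and AF stood near the level of AF with MNA. Without AF replicate 2 the log2 difference from AF went from 1.78 to 2.44 and passed (limma adjusted p = 0.0168), and without PF replicate 2 that from PF went from 1.72 to 2.51 and passed (limma adjusted p = 0.00823). With any other library left out the differences were 1.30 to 1.81 and did not pass. Aaed1, a peroxiredoxin-like gene also named Prxl2c, was 2.13-fold higher in AF with MNA than in AF (limma adjusted p = 0.806) and passed the same threshold in that comparison. It was at 15.99, 5.53 and 4.79 FPKM in PF, 6.28, 5.67 and 5.63 FPKM in AF, and 17.28, 15.59 and 9.22 FPKM in AF with MNA, so that PF replicate 1 lay within the range of AF with MNA. The median log2 difference of the 8 genes was -0.15 for AF against PF, 0.26 for AF with MNA against AF and 0.14 for AF with MNA against PF.

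**Figure D5:**
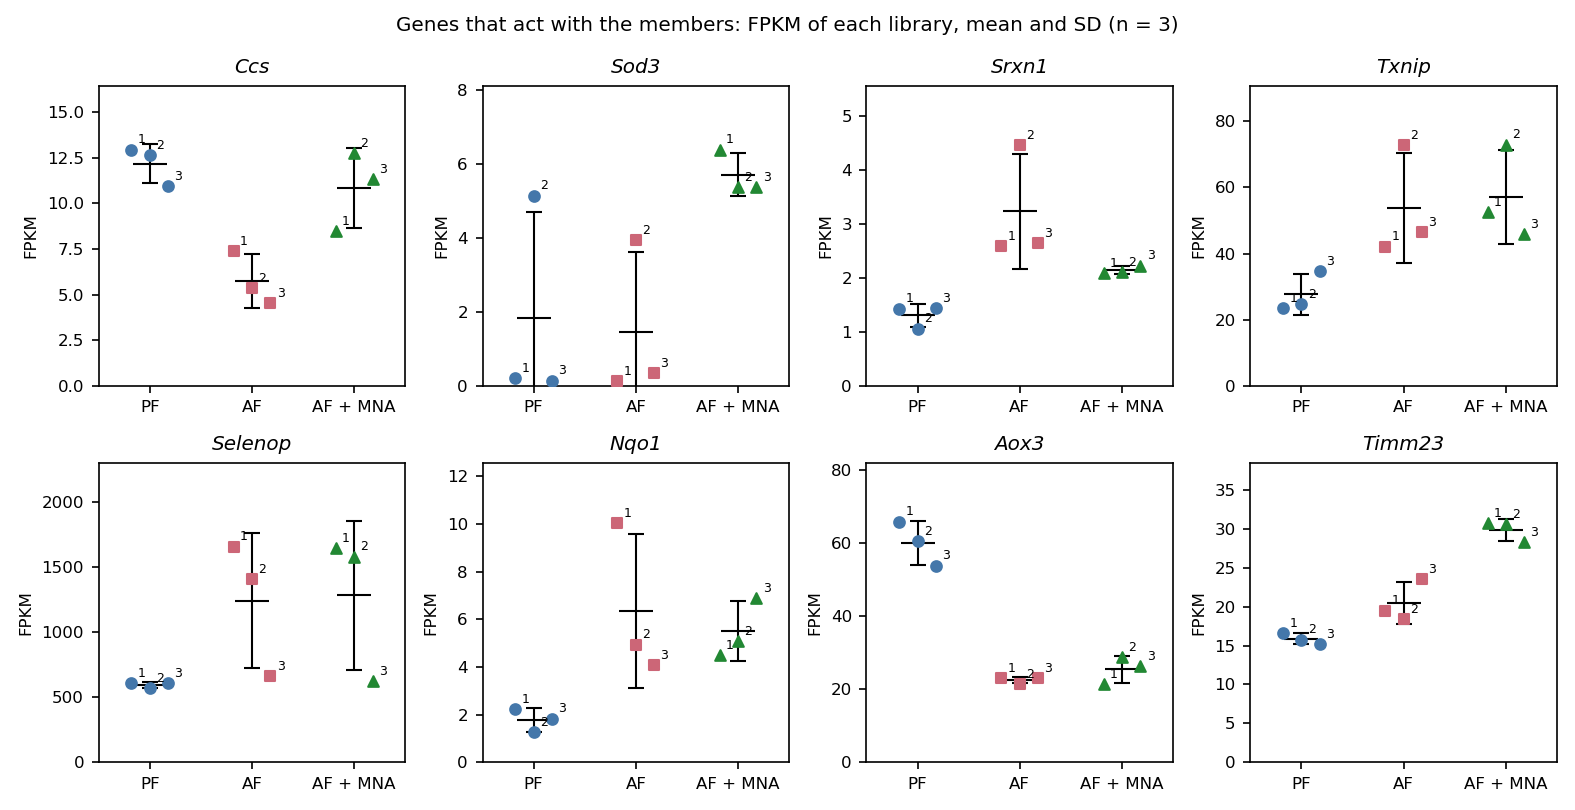
FPKM on the vertical axis, from 0, is plotted for each library (digits are replicate numbers) of 8 genes that act with the enzymes, with the mean and SD of PF, AF and AF with MNA (n = 3 each; SD bars that would pass below 0 are cut at the axis). Ccs is lowest in AF, Aox3 is highest in PF, Timm23 steps up over the 3 groups without overlap, and Selenop and Sod3 are split within groups.

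The thioredoxin and glutaredoxin list had 17 tested genes, none of which passed an adjusted p of 0.05 in any comparison. Srxn1, sulfiredoxin, which repairs over-oxidised peroxiredoxins, passed the threshold of the methods in AF against PF, 1 of 17 genes, with 3.23 ± 1.06 FPKM in AF and 1.31 ± 0.217 FPKM in PF (limma adjusted p = 0.188). It was at 2.14 ± 0.0757 FPKM in AF with MNA, below every AF library and above every PF library. Txnip, the inhibitor of thioredoxin, passed it in AF with MNA against PF, at 57.1 ± 14.1 and 27.7 ± 6.20 FPKM (limma adjusted p = 0.155). In AF it was at 53.8 ± 16.6 FPKM, with every library above every PF library. This was 1.89-fold above PF (limma unadjusted p = 0.00985, adjusted p = 0.269), with a ratio of means just short of the threshold. The median log2 difference of the list was 0.12 for AF against PF, -0.17 for AF with MNA against AF and 0.096 for AF with MNA against PF.

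Among 16 tested genes of NRF2 control and its targets, 3 passed the threshold of the methods as higher in AF than PF, Nqo1, Gclc and Srxn1, and 1 as lower, Me1, which makes NADPH. Nqo1, a quinone reductase, was at 2.23, 1.26 and 1.84 FPKM in PF, 10.05, 4.94 and 4.09 FPKM in AF, and 4.50, 5.08 and 6.91 FPKM in AF with MNA, with both alcohol-fed groups above PF (limma adjusted p = 0.19 and 0.0904). Gclc, the catalytic subunit of the rate-limiting enzyme of glutathione synthesis, was at 3.67 ± 1.07 FPKM in PF, 7.51 ± 2.21 FPKM in AF and 7.63 ± 1.52 FPKM in AF with MNA. Me1 was at 56.5 ± 11.2 FPKM in PF, 27.5 ± 3.97 FPKM in AF and 42.0 ± 5.94 FPKM in AF with MNA. In AF with MNA against PF, 3 genes passed as higher, Nqo1, Gclc and the haem oxygenase Hmox1, the last named after its values were seen because 4 other genes of the list came before it by p. Hmox1 was at 6.51, 6.48 and 4.80 FPKM in PF, 15.84, 159.91 and 10.47 FPKM in AF, and 19.79, 18.12 and 8.46 FPKM in AF with MNA (limma adjusted p = 0.218 against PF). Gclm, the partner subunit of Gclc, was named after its values were seen and was at mean levels of 13.9 FPKM in PF, 9.00 FPKM in AF and 7.39 FPKM in AF with MNA. Its log2 difference was -0.69 in AF against PF, and -1.08 to -0.40 with 1 library left out. In AF with MNA against AF it was -0.14, and -0.43 to 0.26 with 1 library left out. All libraries of AF with MNA lay below all PF libraries for Gclm, with a log2 difference of the means of -0.83 (SE 0.14, limma adjusted p = 0.0979), which passed neither threshold. The median log2 difference of the list was 0.15, -0.061 and 0.16 in AF against PF, AF with MNA against AF and AF with MNA against PF, with 11, 6 and 10 of 16 genes above 0. Prdx1 and Sod1 had the antioxidant response core in their promoter window. Neither passed an adjusted p of 0.05 or the threshold of the methods. The other enzymes did not either, except Prdx3 at an adjusted p under 0.05 in AF with MNA against PF. Prdx1 was higher in every library of both alcohol-fed groups than in every PF library, and Sod1 overlapped. The part of NRF2 in these values was not tested.

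Of 12 tested genes for selenium handling and selenoprotein synthesis (11 in AF with MNA against AF), 1 passed the threshold of the methods in AF against PF and in AF with MNA against PF, Selenop, the plasma selenium carrier made by the liver. It was at 606.32, 571.19 and 607.75 FPKM in PF, 1656.67, 1409.28 and 660.96 FPKM in AF, and 1644.09, 1579.74 and 622.59 FPKM in AF with MNA. Each alcohol-fed group held a pair of libraries at 1409 FPKM or more and 1 library near PF, and the adjusted p was 0.381 and 0.335 in limma's test. The low library of AF with MNA was replicate 3, which was also the lowest of its group for Gpx1 and Gpx4, and that of AF was replicate 3, 1 of the 2 libraries of most intronic signal, where Gpx1 and Gpx4 were not the lowest of their group. Without AF replicate 3 the Selenop difference between AF and PF went from 0.96 to 1.36 on the log2 scale (limma adjusted p = 0.103). Between AF with MNA and PF it was 0.98, or 0.74 without AF with MNA replicate 1 and 1.44 without AF with MNA replicate 3 (limma adjusted p = 0.486 and 0.0692), and between AF with MNA and AF it was 0.022, or -0.62 without the 2 libraries of most intronic signal (limma adjusted p = 0.808). The median of the list was -0.12, 0.022 and -0.071 on the log2 scale in the same order of comparisons.

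Among 21 tested enzymes that make hydrogen peroxide or superoxide, Aox3, a hepatic aldehyde oxidase, fell in AF as compared to PF, from 60.0 ± 6.04 to 22.5 ± 0.866 FPKM (limma adjusted p = 0.0141), and was at 25.5 ± 3.76 FPKM in AF with MNA (limma adjusted p = 0.0445 against PF). The AF call of Aox3 was lost with the replicate block (adjusted p = 0.108), in the covariate model (0.245) and without any 1 of PF replicates 1 and 2 and AF replicates 1 and 3 (0.0543 to 0.0708), and the call in AF with MNA was lost with each library left out (0.0714 to 0.136) and under 5 of 9 other settings, while the log2 difference stayed between -1.45 and -1.09. Hao1, the peroxisomal glycolate oxidase, passed the threshold of the methods with lower values in AF than PF, at 3.67 ± 0.979 and 9.23 ± 1.72 FPKM (limma adjusted p = 0.106). Cyp2e1, named after its values were seen, had means of 3326 FPKM in PF, 2880 FPKM in AF and 3130 FPKM in AF with MNA. Every AF library lay below every PF library for Cyp2e1, which passed neither threshold (limma adjusted p = 0.721). No gene of this list passed as higher in any comparison, and its median was -0.076, 0.097 and 0.0062 on the log2 scale. None of the 17 tested peroxisome genes passed either threshold, and their median was -0.15, 0.16 and -0.013. The 2 of highest mean over all 9 libraries were Abcd3, a peroxisomal transporter at 24.8 ± 5.91 FPKM in PF, 19.3 ± 8.91 FPKM in AF and 24.2 ± 1.71 FPKM in AF with MNA, and Pex11a, a peroxisome division factor at 13.8 ± 1.35, 13.3 ± 7.04 and 26.1 ± 5.52 FPKM, though Pex6 and Pex5 had higher means than Pex11a in PF and in AF.

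Of 16 genes for mitochondrial protein import and upkeep, Timm23, the channel of the inner-membrane translocase through which matrix proteins such as Prdx3 and Sod2 enter, rose in AF with MNA as compared to PF. It was at 16.58, 15.77 and 15.19 FPKM in PF, 19.48, 18.37 and 23.55 FPKM in AF, and 30.74, 30.59 and 28.22 FPKM in AF with MNA. The 3 groups did not overlap, and the difference from PF was 0.87 on the log2 scale (SE 0.10, 1.83-fold, limma adjusted p = 0.0298). This call was lost with each of the 6 libraries left out (adjusted p = 0.0778 to 0.103), with the replicate block (0.205) and in the covariate model (0.29), while the difference stayed between 0.84 and 0.91. Clpx, a subunit of the matrix protease, was at 1.79 ± 0.531 FPKM in PF, 3.44 ± 1.5 FPKM in AF and 3.90 ± 0.918 FPKM in AF with MNA, and passed the threshold of the methods against PF in the latter (limma adjusted p = 0.188). The median of the list was -0.013, 0.099 and 0.049 on the log2 scale in the 3 comparisons, in the order given above.

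The genes whose levels followed those of Sod2, Gpx4 and Prdx1 most closely were sought over the 9 libraries by Pearson's r of log2(FPKM + 1), among 12256 genes, as a description. For Sod2 they were Zscan21 (r = 0.915), Dyrk1a (r = 0.906) and Marco, a scavenger receptor of macrophages (r = 0.901). Gpx4 was followed by Ddah1 (r = 0.965), Apom (r = 0.952) and Smad7 (r = 0.945), and Prdx1 by Gm23971 (r = 0.968), Arntl (r = 0.965) and Wrnip1 (r = 0.964). These are the highest of 12256 values of r over 9 libraries, and no chance level was computed for them. Arntl and Marco had the lowest levels of these genes, with means of 0.516 and 1.70 FPKM.

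The spans of 3 of the genes share bases with a coding gene on the opposite strand in GENCODE. They are Prdx2 (181 bases with Rnaseh2a and 351 with Junb), Sod1 (650 bases with Scaf4) and Prdx5 (409 bases with Trmt112), and the sources used here do not state whether the FPKM values were made with strand. These partners were at most 15.1 FPKM in any library. Trmt112 was at 3.95 to 15.06 FPKM beside 16.96 to 27.15 FPKM for Prdx5, and its part in the Prdx5 values was not tested. Junb was listed at 0 FPKM in 7 libraries and at 10.64 and 6.90 FPKM in AF with MNA replicates 2 and 3, where Prdx2 was at 15.00 and 15.80 FPKM. The Prdx6 relative Prdx6b was listed at no more than 0.02 FPKM, and no transcript of the lncRNA table overlapped any of the 10 genes.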

How the data were processed

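Strand-specific libraries of liver RNA depleted of ribosomal RNA, 3 per group, were analysed from the deposited tables. The authors made FPKM values of genes and lncRNA transcripts with StringTie from transcripts merged across libraries. The submitters' processing notes list cutadapt 1.9, FastQC, HISAT2, TopHat, StringTie 1.3.4 and edgeR, and the genome build is not given in the sources used here. The lncRNA table also holds, as deposited, the read coverage of each transcript, which was a fixed multiple of FPKM in each library. The circRNA count of the authors is the number of junction reads, not scaled. The scaled junction signal and the coding scores that the authors deposited were not used. Of 7879 known lncRNA transcripts, 7841 were found in GENCODE M21 (GRCm38), 7708 with the same chromosome, start and end, so positions of the 10 genes were taken from it by transcript identifier.

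Entries with a known transcript, a gene name and an average FPKM of 0.5 or more in the 6 libraries of a comparison were tested as log2(FPKM + 1) with limma 3.58.1 (eBayes with an intensity trend, Benjamini-Hochberg adjustment over all tested genes, two-sided), in R 4.3.3, and the fit was tested on simulated data. Tables and figures used Python 3.11.15, pandas 2.3.3 and matplotlib 3.10.9. Fold changes are on the log2(FPKM + 1) scale. The genes and lists were chosen with earlier results of these data known. Genes of a list were named where they passed a threshold in any comparison (up to 4 by p), or else the 2 of highest level. Alternatives were a pseudocount of 0.1, scaling to the same median, no trend, all 9 libraries, a replicate block, no moderation with a library-size covariate, other minimum levels and each library left out. Added after the data were seen was a fit without the 2 libraries of most intronic signal. The lowest and highest correlation between libraries was 0.91 and 0.94, so none was a copy of another.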

Additional observations from a re-analysis of the deposited data

How the results depend on the processing

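Only 1 of the 30 log2 differences of the 10 genes was called, so the others had no call to lose. Under the settings that use another choice, 258 results kept their direction and side of the threshold, 5 reversed, 6 lost the call and 1 gained one. With 1 library left out, 147 kept both, 26 reversed, 6 lost the call and 1 gained one. Against PF, the fit without the 2 libraries of most intronic signal leaves out 1 library, so it is in both counts. Prdx3 in AF with MNA against PF, the 1 call of the 10, had adjusted p values of 0.05 (just over the limit) with a pseudocount of 0.1, 0.0577 with scaled libraries, 0.0709 with any value above 0, 0.262 with the replicate block, 0.268 with the covariate model and 0.0934 without the 2 libraries of most intronic signal, so that 0 of the 10 were called in the first 5 of these. It was called without the trend, with all 9 libraries and at 2 FPKM or more. The count of the 10 called in this comparison ranged from 0 to 1 when 1 library was left out, the 1 being Sod2 without AF with MNA replicate 1.

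The direction reversed in the covariate model for Prdx2 (0.064) and Prdx5 (0.011) in AF against PF and for Prdx5 (0.17) in AF with MNA against PF. Without the 2 libraries of most intronic signal it reversed for Cat (-0.023) in AF against PF and for Prdx5 (0.029) in AF with MNA against AF. With 1 library left out, the log2 differences in AF against PF ranged from -0.074 to 0.19 for Cat, 0.033 to 0.36 for Gpx1, 0.24 to 0.48 for Gpx4, 0.023 to 0.16 for Prdx3, -0.18 to 0.13 for Prdx2, -0.41 to -0.094 for Sod1, 0.50 to 0.96 for Sod2, -0.28 to 0.048 for Prdx5 and -0.20 to 0.34 for Prdx6. In AF with MNA against AF they ranged from 0.075 to 0.44 for Cat, 0.054 to 0.24 for Prdx1, 0.17 to 0.44 for Sod1, -0.76 to -0.0046 for Gpx1, -0.059 to 0.18 for Gpx4, -0.029 to 0.25 for Prdx2, -0.11 to 0.13 for Prdx5 and -0.13 to 0.48 for Sod2. In AF with MNA against PF they ranged from 0.13 to 0.47 for Cat, 0.086 to 0.62 for Prdx6, -0.56 to 0.20 for Gpx1, 0.64 to 1.17 for Sod2, -0.040 to 0.19 for Prdx2, -0.28 to 0.061 for Prdx5 and -0.090 to 0.19 for Sod1. The cause was not tested.

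Counts over all genes moved more. Genes with an adjusted p under 0.05 in AF against PF were 86 with all 9 libraries, 18 with the replicate block, 0 in the covariate model, 24 with any value above 0, and 25 to 47 with 1 library left out. In AF with MNA against AF they were 0 with all 9 libraries, 1 with the block, 1 with the covariate, 2 with any value above 0, 2 at 2 FPKM or more, 3 without the 2 libraries and 6 to 13 with 1 left out. In AF with MNA against PF they were 0 with the block, 0 with the covariate, 22 with any value above 0 and 24 to 47 with 1 left out. Genes past the threshold of the methods were 336, 105 and 244 in the covariate model, 1183, 676 and 1105 with any value above 0 and 265, 81 and 228 at 2 FPKM or more, in the same order, and 470 in AF with MNA against AF without the 2 libraries. With 1 library left out they ranged from 516 to 764, 211 to 367 and 467 to 545. Libraries of the same replicate number did not deviate together over all compared genes (r from -0.0801 to 0.0615). With 3 libraries per group this cannot exclude that samples were paired by design.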
